A study of Mus musculus with 6 samples.

Results

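The Hox genes of clusters A to D were examined in haematopoietic stem cells sorted by the chemokine receptor CCR2. The members were all genes named Hoxa, Hoxb, Hoxc or Hoxd with a number in the platform's probe annotation that had a probe set of their own. This gave 36 of the 22180 genes measured, and 36 of the 39 genes of these clusters in the RefSeq table. The others are not analysed here. Cells came from C57BL/6J mice and were sorted as CCR2+ or CCR2- HSC. Each group held 3 pools, described as biological replicates, and each pool held the bone marrow of 20 mice. The sources used here do not give a genotype beyond the strain, a treatment, the age or the gate's other surface markers. Whether mice were shared between pools of opposite groups is unknown as well. From each pool 5 ng of total RNA was amplified and hybridised to 1 whole-transcript array, whose values are RMA expression values on the log2 scale.

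Hox proteins are homeodomain transcription factors that set position along the body axis of the embryo. Each cluster is numbered by paralogue group from its 3′ end, where genes open early and lie anterior, to its 5′ end. They bind DNA together with TALE homeodomain partners, the Meis, Pbx and Pknox proteins, and their clusters are kept open by trithorax proteins and closed by Polycomb proteins. In blood, stem cells and early progenitors express genes of clusters A and B, which are switched off as cells mature. HOXA9 with MEIS1 and HOXB4 are known for driving self-renewal, and Hoxb5 has been used as a marker of long-term stem cells.

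Of the 19 measured members of clusters A and B 14 had a lower mean in the CCR2-positive pools, from 1.02-fold to 1.59-fold, with Hoxa9, Hoxb6, Hoxa5 and Hoxb4 at the upper end and a median difference of -0.15. Of the 17 members of clusters C and D 14 had a higher mean there, by up to 1.34-fold for Hoxc6, with a median difference of 0.11. Differences below are on the log2 scale, CCR2-positive minus CCR2-negative group mean, with the limma standard error. No gene passed the Benjamini-Hochberg adjusted p of 0.05 over all 22180 genes in the limma fit (0.0% called), so no Hox gene did, and the smallest adjusted p of a member was 0.177. At an unadjusted limma p under 0.05 there were 2716 genes (12.2%). On that count 7 of the 36 members were lower (19.4%, against 6.61% of all genes) and 5 were higher (13.9%, against 5.63%). The lower ones were Hoxa3, Hoxa5, Hoxa7, Hoxa9, Hoxb4, Hoxb5 and Hoxb6, and the higher ones Hoxb1, Hoxc6, Hoxc11, Hoxd3 and Hoxd10. CCR2-positive and CCR2-negative values were fully separate for 6 lower members (16.7%, against 7.88% of all genes) and 4 higher members (11.1%, against 10.8%). A negative difference of any size was seen for 17 of the 36 members and for 44.0% of all genes. Over all 36 members the median difference was 0.02, and over all genes it was 0.03, as lower and higher members balanced. The median of the members turned to -0.028 with cyclic loess and to -0.204 without the genes under the median signal. The count of 5 higher members was 1, 0, 2 and 2 without CCR2-negative replicate 1, CCR2-negative replicate 2, CCR2-positive replicate 1 and CCR2-positive replicate 3. In these fits 3.87%, 3.78%, 4.68% and 5.37% of all genes were higher. Without CCR2-positive replicate 1 there were 11 lower members without overlap, and 2 genes of the array, neither a Hox gene, passed the adjusted p. Groups separate more easily for any gene when a pool is left out, and the share over all genes was not counted there.

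**Figure D1:**
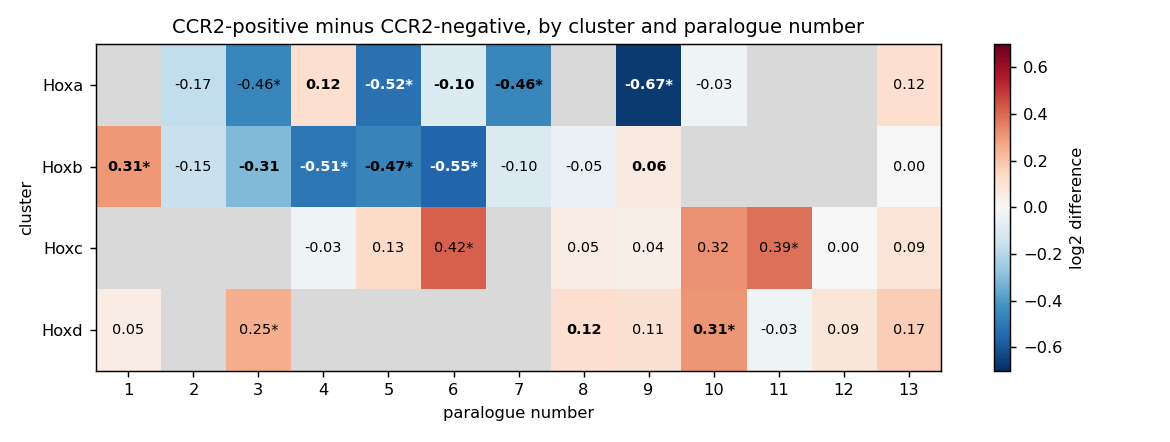
Log2 difference, CCR2-positive minus CCR2-negative pools, of the 36 measured Hox genes by cluster (rows) and paralogue number (columns), with blue for lower and red for higher. A star marks an unadjusted limma p under 0.05, bold type a mean signal above the background drawn from olfactory receptor genes, and grey a paralogue that is no gene of that cluster or was not measured. The lower values lie in Hoxa3 to Hoxa9 and Hoxb3 to Hoxb6, from -0.31 for Hoxb3 to -0.67 for Hoxa9, with Hoxa4 (0.12) and Hoxa6 (-0.10) between them.

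Signal matters for reading these values, because the files hold no detection calls. Genes of olfactory receptors served as an empirical background, although their means reached up to 10.7. A probe set was taken as above this background when its mean over all 6 pools was over the 95th percentile of 1088 such genes (5.91 on the log2 scale). Of the 36 members 13 were above it: Hoxa4, Hoxa5, Hoxa6, Hoxa7, Hoxa9, Hoxb1, Hoxb3, Hoxb4, Hoxb5, Hoxb6, Hoxb9, Hoxd8 and Hoxd10. The other 23 members were not, among them all 9 of cluster C. Just inside the limit lay Hoxb9 at 6.00 and just outside Hoxc9 at 5.90. The direction of a difference also moved with signal over the whole array. Of the genes above the background 57.1% had a negative difference, and of those not above it 67.9% had a positive one. At an unadjusted limma p under 0.05, 6 of the 13 members above it were lower and 2 higher, beside 11.6% and 4.53% of all genes of such signal, and 5 were lower without overlap, beside 12.7%. Of the 23 members not above it 1 was lower and 3 were higher, beside 2.09% and 6.63%. A gene can pass this limit through the group in which it is high, so these counts are a description.

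Promoter sequences of members described below are shown first, so that shared motifs can be read beside the values. They are the 250 bases before the RefSeq start on GRCm38.p6, written 5′ to 3′ on the gene's strand. Hoxa5, Hoxa7, Hoxa9 and Hoxb4 stand for the lower members and Hoxd3 for the higher ones. Capitals mark TTTATG, the core that CDX proteins bind.

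Hoxa5, chr6:52204588-52204837, minus strand: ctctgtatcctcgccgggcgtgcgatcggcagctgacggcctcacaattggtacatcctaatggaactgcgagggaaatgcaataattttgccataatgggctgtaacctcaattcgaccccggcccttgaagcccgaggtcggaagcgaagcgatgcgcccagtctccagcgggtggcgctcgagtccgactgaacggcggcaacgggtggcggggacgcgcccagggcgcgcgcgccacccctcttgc

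Hoxa7, chr6:52218574-52218823, minus strand: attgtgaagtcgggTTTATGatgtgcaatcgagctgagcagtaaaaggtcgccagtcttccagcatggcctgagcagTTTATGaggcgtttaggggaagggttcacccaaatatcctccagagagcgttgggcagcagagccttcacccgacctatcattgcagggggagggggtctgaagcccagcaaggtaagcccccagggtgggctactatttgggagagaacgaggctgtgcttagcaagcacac

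Hoxa9, chr6:52227371-52227620, minus strand: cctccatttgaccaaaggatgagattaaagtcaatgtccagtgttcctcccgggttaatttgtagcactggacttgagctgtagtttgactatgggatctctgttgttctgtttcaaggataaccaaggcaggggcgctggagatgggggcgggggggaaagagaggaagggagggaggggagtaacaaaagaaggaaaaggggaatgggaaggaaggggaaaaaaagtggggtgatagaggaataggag

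Hoxb4, chr11:96318017-96318266, plus strand: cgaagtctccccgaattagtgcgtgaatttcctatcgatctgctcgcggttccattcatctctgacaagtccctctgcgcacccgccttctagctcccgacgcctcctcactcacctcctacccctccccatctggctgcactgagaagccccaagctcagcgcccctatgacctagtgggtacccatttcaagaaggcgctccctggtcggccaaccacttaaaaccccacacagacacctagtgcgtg

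Hoxd3, chr2:74711743-74711992, plus strand: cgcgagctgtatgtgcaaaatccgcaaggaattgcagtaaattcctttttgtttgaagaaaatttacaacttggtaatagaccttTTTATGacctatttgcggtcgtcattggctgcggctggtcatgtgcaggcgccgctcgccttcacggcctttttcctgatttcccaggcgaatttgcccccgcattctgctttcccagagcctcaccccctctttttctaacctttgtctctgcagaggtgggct

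The promoter table held 22 genes of the 4 clusters. On either strand TTTATG occurred in 5 of these 22 windows (22.7%, against 11.1% of 27025 genes), namely in Hoxa7, Hoxb8, Hoxd3, Hoxd4 and Hoxd11. The motif thus stood in a lower member, Hoxa7 with 2 copies, and in a higher one, Hoxd3 with 1. TGATNNAT, the composite site of HOX and PBX proteins, occurred in Hoxa2, Hoxb1 and Hoxb8 (13.6%, against 7.91%), and TGACAG, the core bound by MEIS and PKNOX proteins, in Hoxa2 and Hoxa3 (9.09%, against 16.0%). The windows of the lower members in the table differed in CpG dinucleotides, with 28 in Hoxa5, 18 in Hoxa3, 14 in Hoxb4, 7 in Hoxa7 and 3 in Hoxa9, where the median was 12 over the 22 Hox windows and 6 over all genes.

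Cluster A held 9 measured members, of which 7 had lower and 2 had higher values in the CCR2-positive pools, with a median difference of -0.17. Leaving out CCR2-negative replicate 1 or 3 gave a median of -0.084 or -0.27, and leaving out CCR2-positive replicate 1 gave -0.30. Hoxa9, the posterior paralogue that works with MEIS1 in stem cells and leukaemia, had log2 values of 8.02, 7.80 and 7.72 in the CCR2-negative pools and 7.64, 6.95 and 6.93 in the CCR2-positive pools. Every CCR2-positive pool lay below every CCR2-negative pool, with CCR2-positive replicate 1 close to CCR2-negative replicate 3. The difference of -0.67 ± 0.19 is a 1.59-fold lower value (95% interval -1.12 to -0.23, unadjusted limma p of 0.00793, adjusted p = 0.255). Without CCR2-positive replicate 1 it was -0.91.

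Hoxa7, a central paralogue expressed with Hoxa9 in stem and progenitor cells, had values of 7.10, 7.03 and 6.97 in CCR2-negative and 6.66, 6.58 and 6.50 in CCR2-positive pools. The groups did not overlap, and the gap between them was wider than the range within either. Its difference was -0.46 ± 0.10, or 1.37-fold (95% interval -0.69 to -0.23, unadjusted limma p of 0.00167, adjusted p = 0.183). A second probe set, which the annotation assigns to Hoxa7 and the non-coding gene Mira together and which is no member, had 8.40, 8.09 and 8.11 in CCR2-negative and 7.87, 6.71 and 7.76 in CCR2-positive pools, a difference of -0.75 ± 0.31 in the fit over all probe sets. Hoxa5, which in blood is tied to the choice between myeloid and erythroid fates, had 6.55, 6.11 and 6.32 in CCR2-negative and 5.86, 5.60 and 5.96 in CCR2-positive pools. The groups did not overlap, although CCR2-negative replicate 2 came near the CCR2-positive pools. The difference was -0.52 ± 0.15, or 1.44-fold (95% interval -0.86 to -0.19, unadjusted limma p of 0.00683, adjusted p = 0.243). Hoxa3, an anterior paralogue of pharyngeal organs, had 5.96, 5.63 and 5.56 against 5.35, 5.20 and 5.23, CCR2-negative pools first, again without overlap. It differed by -0.46 ± 0.13 (limma, adjusted p = 0.243), but its mean signal of 5.49 was not above the olfactory background.

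The remaining members of cluster A had differences of -0.17 to 0.12. Hoxa6, which lies between Hoxa5 and Hoxa7, had 7.55, 7.51 and 7.51 in CCR2-negative and 7.83, 7.02 and 7.43 in CCR2-positive pools. The CCR2-positive pools lay on both sides of the CCR2-negative ones, with a difference of -0.10 ± 0.18 (95% interval -0.52 to 0.32). Hoxa6 turned to 0.106 without CCR2-positive replicate 2. Hoxa4 had 6.03, 6.41 and 6.01 in CCR2-negative and 6.12, 6.09 and 6.60 in CCR2-positive pools, which overlapped, with a difference of 0.12 ± 0.17 that turned to -0.046 without CCR2-positive replicate 3. Hoxa10, a posterior paralogue of stem and progenitor cells, had 5.10, 5.13 and 5.00 against 5.22, 4.76 and 5.16, CCR2-negative pools first. Its difference was -0.03 ± 0.14, with a 95% interval of -0.34 to 0.29 and a mean signal that was not above the olfactory background. Hoxa2 (-0.17 ± 0.14) and Hoxa13 (0.12 ± 0.10), an anterior hindbrain and a posterior limb paralogue, were not above it either. Whether the difference of Hoxa6 departs from those of its neighbours was not tested.

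**Figure D2:**
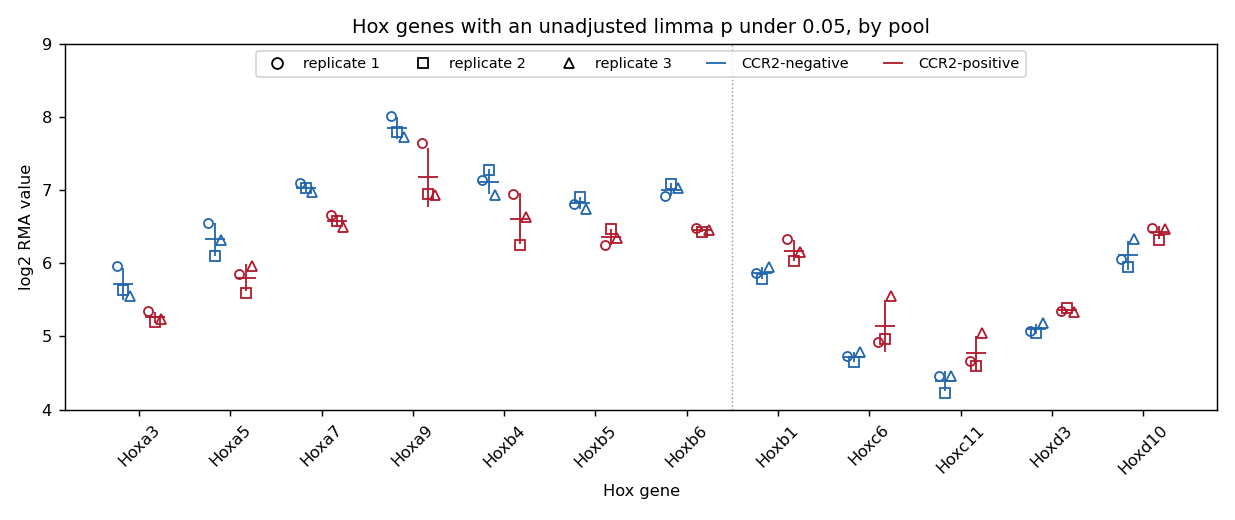
Log2 RMA values of the 12 Hox genes with an unadjusted limma p under 0.05, by pool, with the 7 lower genes left and the 5 higher genes right of the dotted line. Open symbols are pools, the horizontal mark is the mean and the vertical line its SD over 3 pools. Hoxb4 and Hoxd10 are the genes whose groups overlap, and Hoxb6 in the CCR2-positive pools lies between 6.43 and 6.48.

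Cluster B held 10 measured members, 7 with lower and 3 with higher values, and a median difference of -0.13, which was -0.19 without CCR2-negative replicate 2. Hoxb6, a central paralogue of early progenitors, had 6.92, 7.08 and 7.03 in CCR2-negative and 6.48, 6.43 and 6.45 in CCR2-positive pools. All CCR2-positive pools lay together and well below the other group. The difference was -0.55 ± 0.10, or 1.47-fold (95% interval -0.78 to -0.33), and its unadjusted limma p of 3.98e-04 was the smallest of all members (adjusted p = 0.177). Hoxb4, the paralogue whose overexpression expands stem cells, had 7.14, 7.28 and 6.93 in CCR2-negative and 6.95, 6.26 and 6.63 in CCR2-positive pools. CCR2-positive replicate 1 reached CCR2-negative replicate 3, so the groups overlapped. The difference was -0.51 ± 0.18, or 1.42-fold (95% interval -0.92 to -0.10, unadjusted limma p of 0.0208, adjusted p = 0.320). Without CCR2-positive replicate 2 it was -0.33, with an unadjusted limma p of 0.0659, and the p was also over 0.05 without CCR2-negative replicate 1 (0.0521) or 2 (0.0731). Hoxb3, an anterior paralogue next to Hoxb4, had 6.42, 6.19 and 6.67 against 6.34, 6.02 and 6.00, CCR2-negative pools first, with overlap and a difference of -0.31 ± 0.15 (95% interval -0.66 to 0.04, limma, adjusted p = 0.450).

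Hoxb5, the marker of long-term stem cells, had 2 probe sets, and the one with the higher mean had 6.82, 6.91 and 6.74 in CCR2-negative and 6.25, 6.47 and 6.34 in CCR2-positive pools. The groups did not overlap, and the difference was -0.47 ± 0.11, or 1.38-fold (95% interval -0.71 to -0.22, unadjusted limma p of 0.00200, adjusted p = 0.183). The strand that this probe set reads is uncertain. Of the 10 probe sets nearest to it in identifier order that belong to other genes of the promoter table, 8 belong to genes on the minus strand of chromosome 11, whereas Hoxb1, Hoxb4 and Hoxb8 lie on the plus strand in the RefSeq table. Around the other Hoxb5 probe set 8 of 9 neighbours lie on the plus strand. That other probe set had 6.99, 6.74 and 6.40 in CCR2-negative and 6.24, 6.47 and 6.14 in CCR2-positive pools, with CCR2-positive replicate 2 above CCR2-negative replicate 3. Put in place of the first, it gave -0.43 (limma, adjusted p = 0.357, unadjusted p of 0.0306). Both probe sets thus had lower means in the CCR2-positive pools, and the one with plus-strand neighbours had overlapping groups.

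Hoxb1, the hindbrain paralogue at the 3′ end of the cluster, had the opposite sign. Its values were 5.86, 5.79 and 5.95 in CCR2-negative and 6.33, 6.04 and 6.16 in CCR2-positive pools, without overlap. The difference was 0.31 ± 0.11 (95% interval 0.05 to 0.57, unadjusted limma p of 0.0262, adjusted p = 0.341), and its mean signal of 6.02 lay just above the olfactory background. The differences of Hoxb2, Hoxb7, Hoxb8, Hoxb9 and Hoxb13 ran from -0.15 to 0.06, each with a 95% interval that included 0, and only Hoxb9 among them was above that background.

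Clusters C and D, which pattern trunk and limbs and of which adult stem cells are known to use few genes, had 17 measured members. The CCR2-positive mean was higher for 14 and lower for 3, with a median of 0.09 in cluster C and 0.11 in cluster D. Without CCR2-negative replicate 1 the median of cluster C was 0.042, that of cluster D was 0.17 without CCR2-negative replicate 2, and it was 0.18 when CCR2-positive replicate 1 was left out. Of these 17 genes 15 were not above the olfactory background, and 12 of those 15 (80.0%) had a positive difference, beside 67.9% of all genes of such signal. Among all genes not above the background 6.63% were higher at an unadjusted limma p under 0.05, and 3 of the 15 were. Hoxc6 had 4.73, 4.65 and 4.79 in CCR2-negative and 4.92, 4.96 and 5.55 in CCR2-positive pools, a difference of 0.42 ± 0.17 (limma, adjusted p = 0.370). CCR2-positive replicate 3 stood apart from the other pools, and without it the difference was 0.22. Hoxc11 had 4.46, 4.23 and 4.47 against 4.67, 4.60 and 5.05, CCR2-negative pools first, again with CCR2-positive replicate 3 highest, and a difference of 0.39 ± 0.14 (limma, adjusted p = 0.338) that was 0.25 without that pool.

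Hoxd10, a posterior limb paralogue above the background, had 6.06, 5.94 and 6.33 in CCR2-negative and 6.48, 6.32 and 6.47 in CCR2-positive pools. CCR2-positive replicate 2 lay just under CCR2-negative replicate 3, and the difference was 0.31 ± 0.13 (95% interval 0.02 to 0.60, limma, adjusted p = 0.375). Hoxd3, an anterior paralogue, had 5.08, 5.04 and 5.19 against 5.36, 5.38 and 5.33, CCR2-negative pools first. The groups did not overlap, the difference was 0.25 ± 0.10 (limma, adjusted p = 0.355), and the mean signal of 5.23 was not above the background. The other 13 members of clusters C and D ran from -0.03 for Hoxc4 to 0.32 for Hoxc10, each with a 95% interval that included 0.

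Read by paralogue number, the medians were -0.09 for numbers 1 to 4 (10 genes, -0.029 without CCR2-positive replicate 2, -0.054 without CCR2-negative replicate 1 and -0.059 without CCR2-negative replicate 3), -0.10 for 5 to 8 (11 genes) and 0.09 for 9 to 13 (15 genes). Both measured members of numbers 2 and 7 had negative differences, and all measured members of numbers 1 (2 genes) and 13 (4 genes) had positive ones. Other paralogue groups had both signs. For number 3, Hoxa3 (-0.46) and Hoxb3 (-0.31) were lower and Hoxd3 (0.25) was higher. For number 5, Hoxa5 (-0.52) and Hoxb5 (-0.47) were lower and Hoxc5 differed by 0.13. For number 6 the values were -0.10 for Hoxa6, -0.55 for Hoxb6 and 0.42 for Hoxc6. For number 9, Hoxa9 was lower by 0.67 on the log2 scale (difference -0.67), while Hoxb9, Hoxc9 and Hoxd9 differed by 0.06, 0.04 and 0.11. In the run from number 3 to number 7 of clusters A and B, 9 of 10 genes had a lower mean, beside 44.0% of all genes and 57.1% of those above the background, and 6 were lower at an unadjusted limma p under 0.05, beside 6.61% and 11.6%. That run was chosen after the values were seen and is a description.

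**Figure D3:**
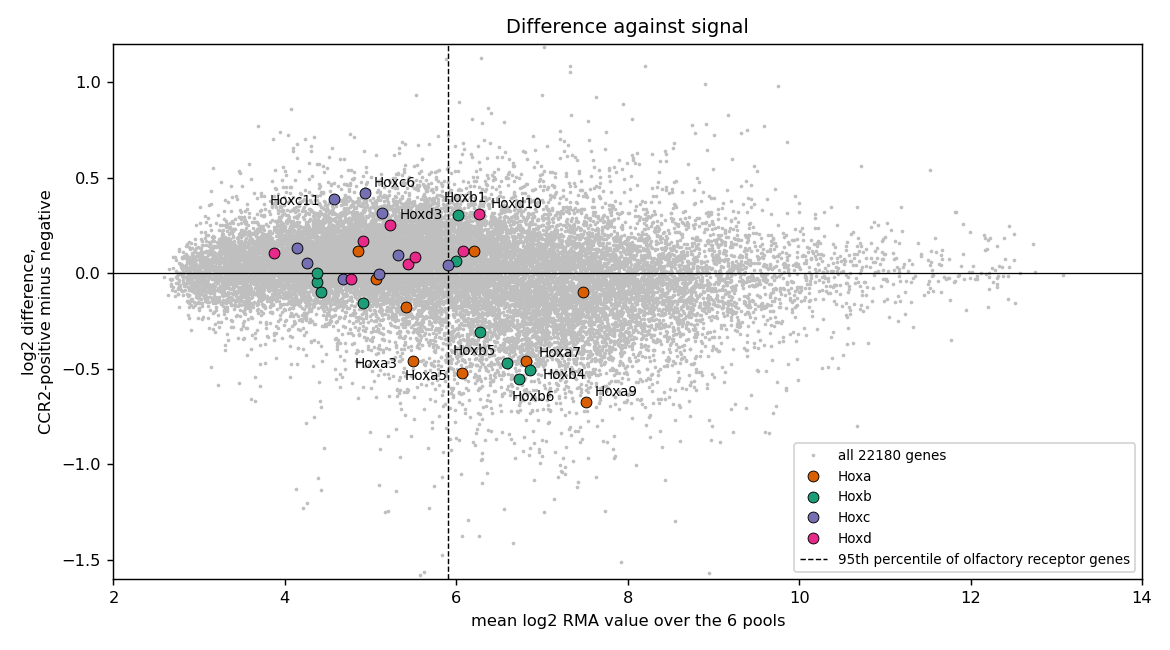
Log2 difference, CCR2-positive minus CCR2-negative, against the mean log2 RMA value over the 6 pools, with all 22180 genes in grey and the Hox genes coloured by cluster; 9 genes lie outside the vertical axis. The dashed line is the 95th percentile of olfactory receptor genes (5.91). Hoxa3 is the 1 lower named gene left of the line, and Hoxc6, Hoxc11 and Hoxd3 are the higher named genes left of it.

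The 7 lower members were also compared pool by pool. In CCR2-negative replicates 1, 2 and 3 all 7 lay above their own mean over the 6 pools, by a median of 0.30, 0.29 and 0.17. In CCR2-positive replicates 2 and 3 all 7 lay below it, by a median of -0.30 and -0.26, and in CCR2-positive replicate 1 it was 5 of 7, with a median of -0.14. Since these genes were picked for their difference, the sides are given by the choice, and the sizes are a description. CCR2-positive replicate 2 was the lowest pool for 4 of the 7.

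Among the TALE partners 8 of the 9 listed genes were measured, and 1 was lower and 0 were higher at an unadjusted limma p under 0.05. That is 12.5%, beside 6.61% of all genes and close to the 11.6% of those above the background. Meis1, the partner of HOXA9, had 9.94, 9.65 and 9.70 in CCR2-negative and 9.48, 8.82 and 9.07 in CCR2-positive pools. Its groups did not overlap, with a difference of -0.64 ± 0.17 (limma, adjusted p = 0.235). Pbx3, another partner of HOXA9, differed by -0.17 ± 0.11, Pbx2 by -0.10 ± 0.24, Pbx4 by 0.29 ± 0.17, Pknox1 by 0.01 ± 0.12, Pknox2 by 0.24 ± 0.11, Meis2 by 0.22 ± 0.12 and Meis3 by 0.00 ± 0.11. The last 2 were not above the olfactory background.

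At an unadjusted limma p under 0.05, 0 of 21 listed activators and chromatin factors were lower, beside 6.61% of all genes and 11.6% of those above the background. The 1 that was higher is a share of 4.76%, close to the 5.63% of all genes. That gene was Cdx2 (0.26 ± 0.10), a caudal factor that opens Hox genes in the embryo, and like Cdx1 and Cdx4 it was not above the background. Kmt2a, the trithorax methyltransferase that keeps Hox genes active in stem cells, differed by -0.32 ± 0.16, the insulator protein Ctcf by -0.23 ± 0.11 and the acetyltransferase Kat6a by -0.27 ± 0.14. Of 16 measured Polycomb genes 2 were lower and 0 higher, a share of 12.5% that is also close to 11.6%. They were Phc1 (-0.61 ± 0.14, limma, adjusted p = 0.187) and Rnf2, the ubiquitin ligase of the complex (-0.51 ± 0.15, limma, adjusted p = 0.265), while Eed differed by -0.29 ± 0.13 and Phc3 by -0.34 ± 0.15. Of 14 genes reported as targets of HOXA9 and MEIS1, 9 were lower and 0 higher, with a median of -0.43, where 6.61% of all genes and 11.6% of those above the background were lower. They included Sox4 (-0.75 ± 0.11), Cd34 (-0.83 ± 0.17) and Zfp521 (-0.55 ± 0.14), and the list shares Meis1 and Cd34 with the stem cell markers below. The rest of the list was Cdkn2a (0.26), Igf1 (0.11), Id2 (0.05), Flt3 (0.01) and Myb (-0.03). As the lists were chosen with earlier results of these data known, these counts are a description.

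Neighbours of the clusters were read from a list of 17 measured flanking genes, of which 2 were lower and 0 higher at an unadjusted limma p under 0.05. This share of 11.8% stands beside 6.61% of all genes and 11.6% of those above the background, and 5 of the 17 were not above it. Both are neighbours of cluster A, on its 3′ side. Skap2, an adaptor protein gene, had 8.55, 8.92 and 8.45 in CCR2-negative and 7.99, 7.97 and 7.92 in CCR2-positive pools, a difference of -0.68 ± 0.14 (limma, adjusted p = 0.177). Snx10, a sorting nexin gene farther out on that side, differed by -0.38 ± 0.10 (limma, adjusted p = 0.214). Neither pair of groups overlapped. On the 5′ side of the cluster Evx1 differed by 0.06 ± 0.11, Hibadh by -0.11 ± 0.12 and Tax1bp1 by -0.25 ± 0.11, the last also without overlap of the groups.

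The microRNA genes inside the clusters are shown by their mature 5p sequences, because those of a family share a seed (bases 2 to 8, in capitals) although they lie in different clusters.

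mmu-miR-10a-5p of cluster B: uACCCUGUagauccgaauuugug

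mmu-miR-10b-5p of cluster D: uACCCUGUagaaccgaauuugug

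mmu-miR-196a-5p of clusters B and C: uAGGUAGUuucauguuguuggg

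mmu-miR-196b-5p of cluster A: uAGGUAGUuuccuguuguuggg

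The miR-196 family is known to pair with Hoxb8 messenger RNA. The arrays measure longer transcripts over these genes and not the mature forms. Mir196a-1, between Hoxb9 and Hoxb13, had 6.36, 6.82 and 6.61 in CCR2-negative and 7.12, 6.68 and 7.93 in CCR2-positive pools, which overlapped, with a difference of 0.65 ± 0.28 (unadjusted limma p of 0.0492, adjusted p = 0.405). CCR2-positive replicate 3 stood above all others. Mir196a-2 of cluster C differed by 0.19 ± 0.15, and Mir10b of cluster D by -0.10 ± 0.10. Hotair, a long non-coding RNA gene of cluster C, differed by 0.26 ± 0.12. None of these 3 was above the background. Hoxb8 itself had 4.26, 4.37 and 4.55 against 4.39, 4.38 and 4.27, CCR2-negative pools first, and was not above the background. Of the 7 listed transcripts that were measured inside the clusters, 6 were not above the background. At an unadjusted limma p under 0.05, 0 were lower and 1 was higher. That is 14.3% higher, beside 5.63% of all genes and 6.63% of those not above the background. Hoxaas3 of cluster A was not on that list. In the fit over all probe sets it differed by -0.18 ± 0.14, with groups that did not overlap.

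Marker lists were read beside the shares of all genes above the background, 11.6% lower and 4.53% higher at an unadjusted limma p under 0.05 and 57.1% with a negative difference. They too were chosen with earlier results of these data known, so their counts are a description. The transcript of the sorted receptor, Ccr2, was at 5.91 ± 0.32 without and at 6.70 ± 0.47 with the surface protein (SD, n = 3 pools each), and its pools overlapped. All 13 measured stem cell markers were above the olfactory background in these cells, all had lower means in the CCR2-positive pools, and 7 were lower at an unadjusted limma p under 0.05. Their list mean ran from 7.94 to 8.26 in CCR2-negative and from 7.34 to 7.73 in CCR2-positive pools. Cd34, Meis1, Mllt3 and Gata2 were on this list beyond the markers planned at first, and Cd34 and Meis1 are among the 7 lower ones. The 9 erythroid markers had higher means in every case, 6 of them at an unadjusted limma p under 0.05, with list means of 8.50 to 9.01 and 9.20 to 9.71, CCR2-negative first. Monocyte and macrophage markers were higher at that p in 4 of 10 cases (6.49 to 6.66 and 6.78 to 7.11). Of all 10 on that list, Csf1r, Adgre1 and Ms4a6d were not above the background. Neutrophil markers were higher in 3 of 10 cases (5.45 to 6.16 and 5.76 to 6.87), with Ngp, Ltf, Camp, Ly6g and Itgam not above it. None of the 10 lymphocyte markers passed that p (5.23 to 5.26 and 5.29 to 5.42), and 8 of them were not above the background. Of 7 megakaryocyte markers 1 was lower and 0 higher. The part of these cell types in the Hox differences was not tested, and in pools of cells fewer cells of a type and less RNA per cell cannot be told apart.

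**Figure D4:**
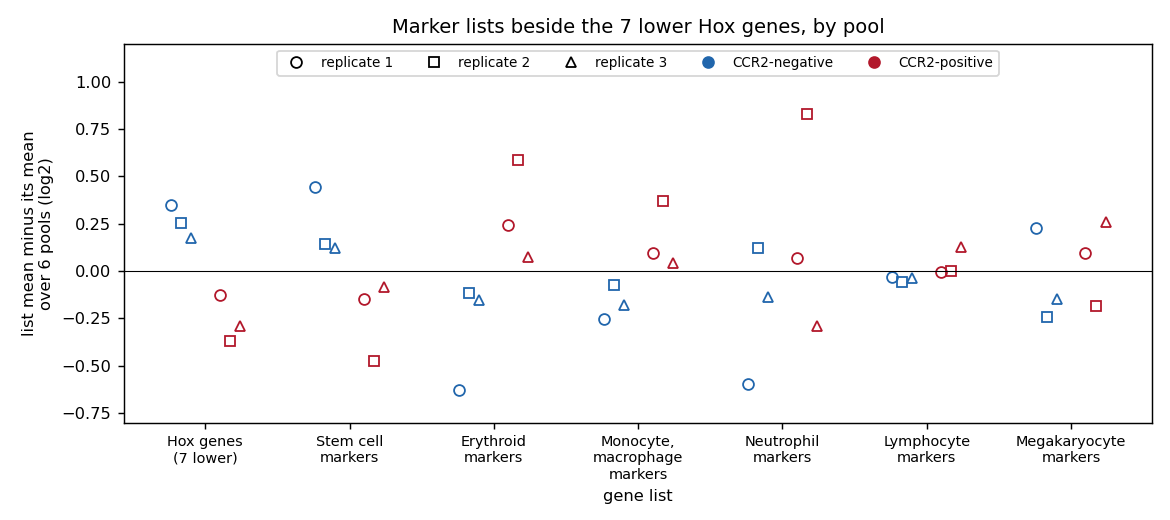
Mean log2 value of the 7 lower Hox genes and of 6 marker lists in each pool, after subtraction of each list's mean over the 6 pools; symbols are replicates and colours are groups. The groups separate for the Hox genes, 6.76 to 6.93 against 6.21 to 6.46 before subtraction with CCR2-negative first. As these genes were picked for their difference, that separation is given by the choice. The erythroid markers separate in the opposite direction. CCR2-positive replicate 2 is lowest for the Hox genes and the stem cell markers and highest for the erythroid, monocyte and neutrophil lists.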

How the data were processed

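The values deposited by the authors are on the log2 scale, for 41345 probe sets on 6 arrays, 1 per pool. Per the submitters' processing notes these are RMA values, which are background-corrected, equalised between arrays and summarised per probe set. The sources used here give no RMA version or settings. The log2 scale was checked from the range of the values (2.39 to 13.3). Equalising makes each difference relative to the other genes of an array, and the number of arrays limits the precision (median standard error 0.127).

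The platform annotation gave 23521 probe sets with 1 gene, 1814 with several and 16010 with none listed. The probe set with the highest mean over the arrays stood for a gene, which left 22180 genes. The groups were compared with limma 3.58.1 in R 4.3.3 (lmFit, eBayes, no covariate), with Benjamini-Hochberg adjustment over all genes. The fit was also run on simulated data with independent noise for each gene, a setting without effects shared within a pool. No result here rests on that run. Nothing in the labels says that the pools are separate animals beyond the word biological, so p-values measure the spread between these pools.

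Deviations of same-numbered pools had correlations of 0.035, 0.089 and 0.045 over genes, and those of other pools of opposite groups -0.10 to 0.068. The numbers were not used as pairs, and whether they are pairs is unknown. All Hox members could be named. Described by pool were those with an unadjusted p under 0.05 and Hoxa5, Hoxa7, Hoxa9, Hoxa10, Hoxb3, Hoxb4, Hoxb5 and Hoxb6; of other lists up to 4 genes with the smallest p, and all TALE genes. Hoxa4, Hoxa6 and Hoxb8 were added by pool after their values were seen, for their place beside the named genes or as a microRNA target, and other genes were named for their place or role. The members and lists were chosen with earlier results of these data known. Promoter and microRNA sequences are from RefSeq (GRCm38.p6). Alternatives were filters on dim genes, other normalizations, the replicate number as a block, other eBayes settings, array weights, the mean of probe sets, each pool left out and, added after the data were seen, the other Hoxb5 probe set.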

Additional observations from a re-analysis of the deposited data

Results flagged for a closer look

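Probe sets that the annotation assigns to several genes were outside the comparison, and 3 of those that name a Hox gene had higher values in every CCR2-positive pool than in any CCR2-negative pool. Such separation was seen for 10.8% of all genes and for 14.2% of those not above the background. All values of these 3 probe sets lay under the background limit of 5.91, and the count is a description. The probe set of Hoxd4 and Hoxd3 differed by 0.20. Of the probe sets of Hoxa11 and its antisense gene Hoxa11os, 1 differed by 0.22 and the other by 0.40. By neighbours in identifier order, read as for Hoxb5, the first had 10 of 10 on the plus strand. The other had 9 of 10 on the minus strand, where Hoxa11 lies. Of the other 4 probe sets of several genes, that of Mira and Hoxa7 was lower in every CCR2-positive pool (-0.75). So were 7.88% of all genes and 12.7% of those above the background. The probe sets of Hoxb3 with Hoxb2, Hoxb4 with Mir10a and Hoxa3 with 5730446D14Rik differed by -0.27, -0.20 and -0.03 with overlap. None of the 7 passed an adjusted limma p of 0.05 over all probe sets. Neighbours lay mostly on the strand opposite to the Hox genes for Hoxb3 with Hoxb2 (8 of 10) and for Hoxa3 with 5730446D14Rik (10 of 10). The strand that these probe sets read is uncertain.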

How the results depend on the processing

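The differences of Hoxa3, Hoxa5, Hoxa7, Hoxa9, Hoxb5 and Hoxb6 kept their sign and an unadjusted limma p under 0.05 in every alternative that measured them, while Hoxb4 did so in 12 of 16. The lower Hox genes numbered 6 to 8 over the alternatives, in which 4.79% to 10.1% of all genes were lower. With the replicate number as a block there were 7 lower and 4 higher Hox genes, against 7 and 5 without it (Hoxd3 had an unadjusted limma p of 0.0547), and 0 genes past the adjusted p in both. Whether the numbers pair the pools is unknown, and the smallest adjusted limma p over all genes was 0.062 with the block and 0.177 without. As each pool was left out, 0 to 2 genes passed the adjusted p (both, neither a Hox gene, without CCR2-positive replicate 1). Hox genes higher at an unadjusted limma p under 0.05 numbered 0 to 5 (0 without CCR2-negative replicate 2), beside 3.78% to 6.57% of all genes. Those lower without overlap numbered 6 to 11 (11 without CCR2-positive replicate 1). With a pool left out, non-overlap is easier to reach for any gene, and its share over all genes was not counted. The Hox median then ran from -0.0093 to 0.065, that of the Hox genes above background, -0.31 with all pools, from -0.42 to -0.19, and those of clusters A, B, C and D from -0.30 to -0.084, -0.19 to -0.086, 0.042 to 0.13 and 0.078 to 0.18. Those of numbers 1 to 4 and 5 to 8 ran from -0.13 to -0.029 and -0.10 to -0.062. Without genes under the 25th percentile, cluster B was at -0.31 and numbers 5 to 8 at -0.46. Without genes under the median, 1 Hox gene was higher, beside 3.62% of all genes kept. The medians were then -0.20 for all Hox genes left and -0.46, -0.39 and 0.21 for clusters A, B and D. Numbers 5 to 8 were at -0.46 and 9 to 13 at 0.052. Dim members were left out of these medians, and the differences of the 14 members kept were unchanged. Cyclic loess gave -0.028 for all Hox genes and 0.027 for numbers 9 to 13, and array weights -0.048 for numbers 5 to 8 and -0.080 for cluster A; the cause was not tested. The balance of all genes at an unadjusted p under 0.05, 1467 lower and 1249 higher, turned to 1227 and 1463 after a second quantile normalization and was 1621 and 1027 with median centring. Signal over background is not given for any probe set.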
